A study of Homo sapiens with 4 samples.

Results

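What DHA adds in cells treated with CCCP was read from a single pair of libraries, CCCP with DHA against CCCP alone. The genes compared were the 13111 of 58735 with at least 1 FPKM, that is fragments per kilobase of summed exon length after scaling for library size, in either library of the pair. Each was given a log2 ratio of FPKM + 0.5, so that a positive value means a higher level when DHA was present. Genes whose ratio was at least 2-fold were called higher or lower. The pair holds 1 library per condition, so there was no spread between replicates to measure, no test and no p-value.

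The cells were OMM2.3, an established uveal melanoma line that came from a liver metastasis and was cultured in medium with 10% fetal bovine serum. The series holds 4 bulk RNA libraries of this line: control cells, cells with CCCP, cells with DHA, and cells with CCCP and DHA. All of them come from this line with no label of a genetic change, and each treatment is known from 1 library only. What DHA stands for is not spelled out in the labels, and the sources used here do not give the doses, the times or the vehicle of the control.

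CCCP is a protonophore: it carries protons across the inner mitochondrial membrane, collapses the membrane potential and separates respiration from ATP synthesis. Loss of the potential, like amino acid shortage or unfolded protein, can engage the integrated stress response, in which phosphorylation of the initiation factor eIF2 lowers general translation while the mRNA of the transcription factor ATF4 is translated more. ATF4 and its partners then switch on genes for amino acid synthesis, amino acid uptake and tRNA charging, and when the stress persists also CHOP (gene DDIT3).

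The libraries were of similar depth, with 16900411 to 18937286 reads recovered over genes, and protein-coding genes held 97 to 97.7% of them. The lineage genes of the line were mostly silent: 6 of 22 melanocyte genes were measured, and 8, among them TYR, PAX3 and OCA2, were listed at 0 in both libraries of the pair. None of the 13 leukocyte and 8 endothelial markers was measured, the highest lying at 0.418 and 0.164 FPKM. Of 12 epithelial markers 3 were measured, the highest at 164 FPKM, and the other 9 were below 1 FPKM in both libraries of the pair. In bulk RNA, fewer cells of a kind and less RNA per cell cannot be told apart. Intervals given with a fold are exact 95% Clopper-Pearson intervals on recovered reads and cover counting error only.

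DHA together with CCCP, set against CCCP alone, went with higher levels of amino acid stress genes and lower levels of mitotic genes. Of all genes measured, 450 (3.43%) were at least 2-fold higher with DHA and 646 (4.93%) at least 2-fold lower. Of the 10767 protein-coding genes measured, 169 (1.57%) were higher and 310 (2.88%) lower, and the counting interval excluded 1 for all of these. The remaining calls were genes of other types, such as miRNA, snRNA and antisense genes. Over all gene types the interval excluded 1 for 255 of the 450 and 467 of the 646. The median log2 ratio was 0.01, so the lists described below are set against a centre close to 0. Their 2-fold counts are set against the protein-coding shares, 1.57% higher and 2.88% lower.

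**Figure D1:**
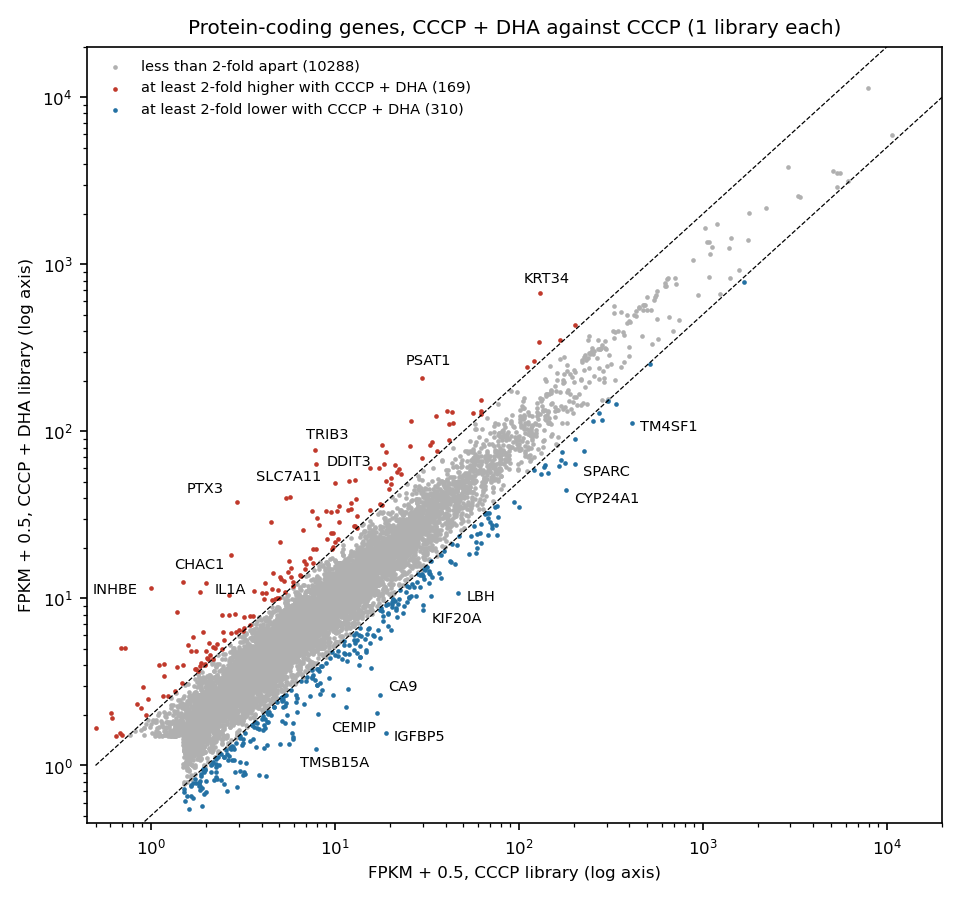
FPKM + 0.5 of each measured protein-coding gene in the CCCP library (horizontal, log axis) and in the CCCP + DHA library (vertical, log axis), 1 library each. Dashed lines mark a 2-fold difference, and the 169 genes above and 310 below are coloured, with stress genes such as TRIB3 and PSAT1 above and IGFBP5, CEMIP and CA9 below.

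Regulators of the integrated stress response were higher together. All 16 listed regulators were measured, and 10 of them were past 2-fold on the higher side and none on the lower. Their median log2 ratio was 1.55. ATF4, the central transcription factor of this response, was at 104 FPKM in control, 129 under CCCP, 229 under DHA and 342 under both. Its level with both was 2.66-fold (2.58 to 2.74) that with CCCP alone. DDIT3, which encodes the ATF4 partner CHOP, stood at 5.5 FPKM in control, 7.37 under CCCP, 12.7 under DHA and 63 under both, an 8.54-fold difference (7.25 to 10.1) within the pair. Both were thus highest in the library with both compounds, with DHA alone next. Of the exon length of DDIT3, 39.6% is shared with another annotated gene, so its reads are less certain.

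TRIB3, a pseudokinase that ATF4 and CHOP switch on and that restrains them in turn, lies on GRCh38 chromosome 20 from 362835 to 397559 (ENSG00000101255). It was at 4.67 FPKM in control, 7.27 under CCCP, 16.3 under DHA and 77.4 under both, 10.6-fold (9.63 to 11.8) higher than with CCCP alone. SESN2, a sestrin that holds back mTORC1 signalling, was at 3.48, 4, 7.78 and 28.3 FPKM in the same order of libraries, 7.06-fold (6.15 to 8.14) higher. CHAC1, an enzyme that breaks down glutathione, had 34 reads with CCCP and 428 with both, at 0.989 and 12.1 FPKM, and was 12.2-fold (8.59 to 17.8) higher. The bZIP partner CEBPG (log2 ratio 1.96), the stress protein NUPR1 (1.75) and PPP1R15A (1.59), which directs the phosphatase that restores translation, were also past 2-fold. ATF3 lay just under it, at 0.99, and CEBPB, VLDLR, TRIB1 and KLHL24 lay between -0.13 and 0.26.

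Enzymes that make serine, glycine, asparagine and related amino acids were higher in the same way. Of 14 listed, 13 were measured, 10 of these were past 2-fold, and the median ratio was 1.45. PSAT1, an aminotransferase of serine synthesis, was at 22.7 FPKM in control, 29.3 under CCCP, 144 under DHA and 209 under both, 7.13-fold (6.69 to 7.61) higher within the pair. DHA without CCCP gave PSAT1 nearly the same log2 ratio, 2.63 against 2.81. CTH, the last enzyme of cysteine synthesis from methionine, was at 1.17, 2.23, 5.58 and 17.7 FPKM and 7.93-fold (6.36 to 9.98) higher. The mitochondrial enzymes PCK2, of phosphoenolpyruvate synthesis, and MTHFD2, of the folate cycle, were 4.68-fold (4.25 to 5.17) and 4.08-fold (3.86 to 4.32) higher, though 33.2% of the exon length of MTHFD2 is shared with another gene. SHMT2, which makes glycine in mitochondria, had a log2 ratio of 1.37.

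PHGDH, the first enzyme of serine synthesis, was an exception in size: its log2 ratio of 1.45 with CCCP was below the 1.61 found without it. ASNS, asparagine synthetase, stayed low throughout, at 0.0577 FPKM in control, 0.403 under CCCP, 0.834 under DHA and 2.45 under both, and 44.6% of its exon length is shared with another annotated gene, so its reads are uncertain. PYCR1 (0.97) and CBS (0.32) were under 2-fold, and ALDH18A1, an early enzyme of proline synthesis, was at -0.20. ALDH1L2 was below 1 FPKM in both libraries.

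Amino acid transporters of this response were higher in part. Of 13 listed, 10 were measured, 5 of them were past 2-fold and the median ratio was 1.18. SLC7A11, the cystine importer that feeds glutathione synthesis, was at 3.01 FPKM in control, 5.18 under CCCP, 13.7 under DHA and 39.8 under both, 7.68-fold (7.15 to 8.26) higher than with CCCP. SLC7A5, a carrier of leucine and other large neutral amino acids, was at 18.5, 25.4, 65.8 and 114 FPKM, and its partner chain SLC3A2 at 12.3, 17, 35.2 and 59.9 FPKM. SLC1A4 (1.73) and the glutamine carrier SLC1A5 (1.40) were past 2-fold, whereas SLC7A6 (55.6% of exon length shared), SLC43A1 and SLC36A1 lay between -0.01 and 0.37. SLC38A2, SLC6A9 and SLC7A3 were below 1 FPKM.

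Over these 3 lists together, 25 of 39 measured genes were at least 2-fold higher and none lower, against 1.57% and 2.88% of all protein-coding genes. CHAC1 and ASNS were below 1 FPKM with CCCP and passed the filter only through the library with both compounds. With no filter, 10 of 14 enzymes and 5 of 12 transporters were 2-fold higher, with median log2 ratios of 1.41 and 0.91. DHA without CCCP put 18 of the 39 past 2-fold, where 0.306% of the same protein-coding genes were. For 34 of the 39 the ratio was larger with CCCP than without, and the list median was 1.45 against 0.92. These genes were listed with earlier results of these data known, so their direction is a description.

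The cytosolic and the mitochondrial list of enzymes that load amino acids onto tRNAs differed in their counts. All 20 genes listed as cytosolic aminoacyl-tRNA synthetases were measured, all had a log2 ratio above 0 and the median was 0.95. At least 2-fold higher were 10 of them, against 1.57% of all protein-coding genes. The tryptophan enzyme WARS was at 8.82 FPKM in control, 9.5 under CCCP, 23 under DHA and 48.8 under both, 5.14-fold (4.81 to 5.51) higher. GARS (glycine) was 3.53-fold (3.37 to 3.69), AARS (alanine) 3.29-fold (3.16 to 3.43) and IARS (isoleucine) 3.25-fold (3.12 to 3.38) higher. At the other end HARS (histidine), RARS (arginine) and QARS (glutamine) had log2 ratios of 0.08, 0.13 and 0.03. Of 17 genes listed as mitochondrial synthetases 16 were measured and none reached 2-fold in either direction. Their median was -0.01, which became 0.07 when the libraries were scaled to equal totals. The lists do not settle in which compartment, or in how many, the enzyme of a gene works.

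ATF4 with C/EBP partners binds a composite element that can be written TGATGNAA. This string was searched for on both strands in RefSeq promoter windows of GRCh38.p14 that run from 250 bases before to 50 after each gene's start. It occurred in 3.67% of all 27305 windows and in 1.6% of the 8956 windows matched to measured protein-coding genes. Among the 129 matched genes at least 2-fold higher 15 (11.6%) held it, and among the 247 matched genes at least 2-fold lower 4 (1.62%). In the 3 stress lists it was in 7 of 32 matched windows, and among cytosolic synthetases in 6 of 13.

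Stretches around the match are printed for 3 genes because they show the same 8 letters at genes from both groups. CHAC1 was the only stress gene with a match among those at least 4-fold higher. TRIB3, DDIT3, PSAT1, CTH, SESN2, SLC7A5, PCK2, DDIT4 and MTHFD2, also at least 4-fold higher, had no match in their windows, and SLC7A11 had no window. AARS and IARS were chosen after the matches were seen. AARS and IARS have the highest ratios among synthetase genes whose match lies wholly before the start. That of MARS, with a higher ratio, lies across its start or after it. Capitals mark the match, here on the opposite strand (TTGCATCA). Each stretch also falls in an untranslated region annotated in GENCODE 29, and is therefore short. They lie at chr15:40953251-40953280 (plus strand), chr16:70289675-70289704 (minus strand) and chr9:92293698-92293721 (minus strand).
CHAC1: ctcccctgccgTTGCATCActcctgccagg
AARS: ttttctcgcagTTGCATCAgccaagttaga
IARS: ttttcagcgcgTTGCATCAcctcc

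The match begins 209 bases before the RefSeq start in CHAC1, 187 before it in AARS and 13 before it in IARS. Of the 7 synthetase genes at least 2-fold higher and in the promoter table, 6 held the string (MARS, AARS, IARS, TARS, CARS and NARS) and WARS did not. Of the 6 under 2-fold and in the table, none held it. A match is a string in a window and not a measured binding site.

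**Figure D2:**
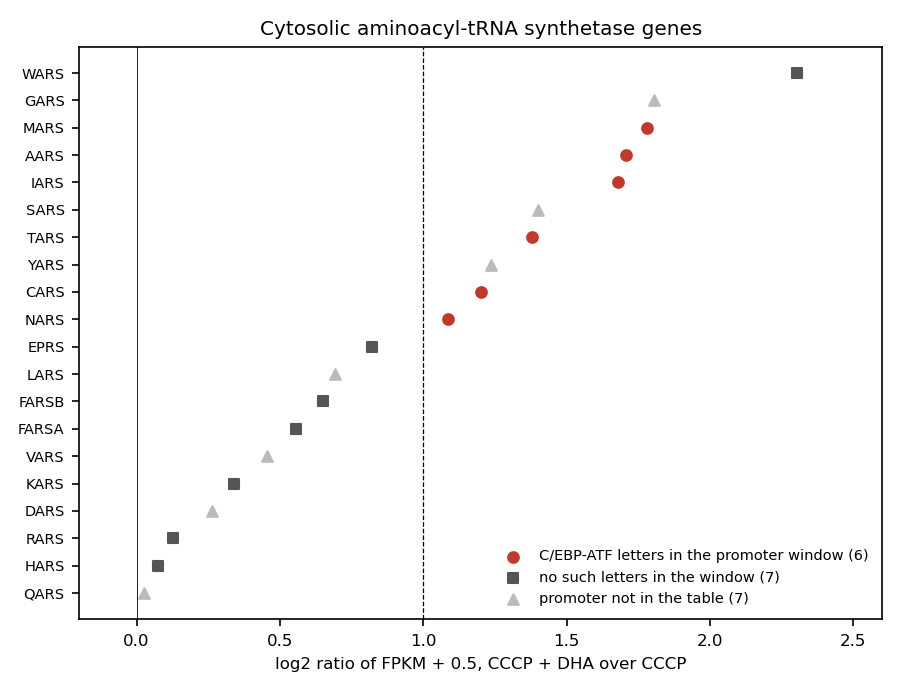
Log2 ratio of FPKM + 0.5, CCCP + DHA over CCCP, for the 20 cytosolic aminoacyl-tRNA synthetase genes, ordered from highest to lowest. Red circles mark the 6 genes whose promoter window holds TGATGNAA, squares those without it, and triangles the 7 genes not in the promoter table; the dashed line is 2-fold.

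Of 8 secreted factors listed for mitochondrial or amino acid stress, 3 were measured (INHBE, STC2 and VEGFA). All 3 were at least 2-fold higher, where 1.57% of all protein-coding genes were. INHBE passed the 1 FPKM filter only through the library with both compounds. With no filter, 3 of the 6 listed factors with reads in the pair were 2-fold higher, and the median log2 ratio was 1.16 instead of 2.11. Several inflammatory genes were higher too. PTX3, a secreted pentraxin of innate immunity on chromosome 3 (157436789 to 157443628, ENSG00000163661), had the highest ratio among protein-coding genes averaging at least 5 FPKM over the pair. It was at 1.19 FPKM in control, 2.44 under CCCP, 2.75 under DHA and 37.4 under both, 15.3-fold (12.2 to 19.5) higher than with CCCP. INHBE, an activin subunit, had 25 reads with CCCP and 576 with both, at 0.496 and 11.1 FPKM, and was at 0.153 in control and 2.08 with DHA. STC2, a secreted glycoprotein, was at 5.22, 11.7, 10.3 and 34 FPKM in control, CCCP, DHA and both. The stress hormones GDF15 and FGF21 were below 1 FPKM in all 4 libraries.

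Of 22 inflammatory genes 16 were measured, 7 were past 2-fold on the higher side and 1 on the lower, and the median was 0.95. Of all protein-coding genes 1.57% were higher and 2.88% lower. The alarmin IL1A was at 0.314 FPKM in control, 1.49 under CCCP, 0.437 under DHA and 11.8 under both, 7.91-fold (5.94 to 10.7) higher within the pair. IL6 was at 1.91, 3.15, 2.08 and 10.5 FPKM. For both, the log2 ratio without CCCP was small, 0.20 for IL1A and 0.09 for IL6, and the library with both compounds was the highest. IL1B (log2 ratio 1.71) and the chemokines CXCL3 (1.78) and CXCL2 (1.10) were also higher, at no more than 5.8 FPKM. CCL2, a chemokine for monocytes, was lower, at 2.35 FPKM with CCCP and 0.408 with both. Leukocyte markers stayed at or below 0.418 FPKM in both libraries.

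Some genes were lower with CCCP than in control and higher than control with both compounds. TFRC, the transferrin receptor that brings iron into cells, was at 31.9 FPKM in control, 12.4 under CCCP, 28 under DHA and 50.9 under both, 4.12-fold (3.9 to 4.35) higher than with CCCP alone. Without CCCP its log2 ratio was -0.18. The angiogenic factor VEGFA was at 8.75, 4.53, 12.9 and 21.2 FPKM, 4.68-fold (4.38 to 5) higher. DDIT4, an mTORC1 inhibitor, was at 32.9, 11.5, 50.7 and 49.7 FPKM, so its level under both lay beside that under DHA alone, and 41.2% of its exon length is shared with another gene. The neutrophil chemokine CXCL8 was at 14.5, 7.48, 17.1 and 29.7 FPKM. In each of these the CCCP library alone was the lowest of the 4. They were named for a high ratio over the CCCP library or a large difference between the ratios. That choice favours genes low in that library, so the pattern is a description.

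**Figure D3:**
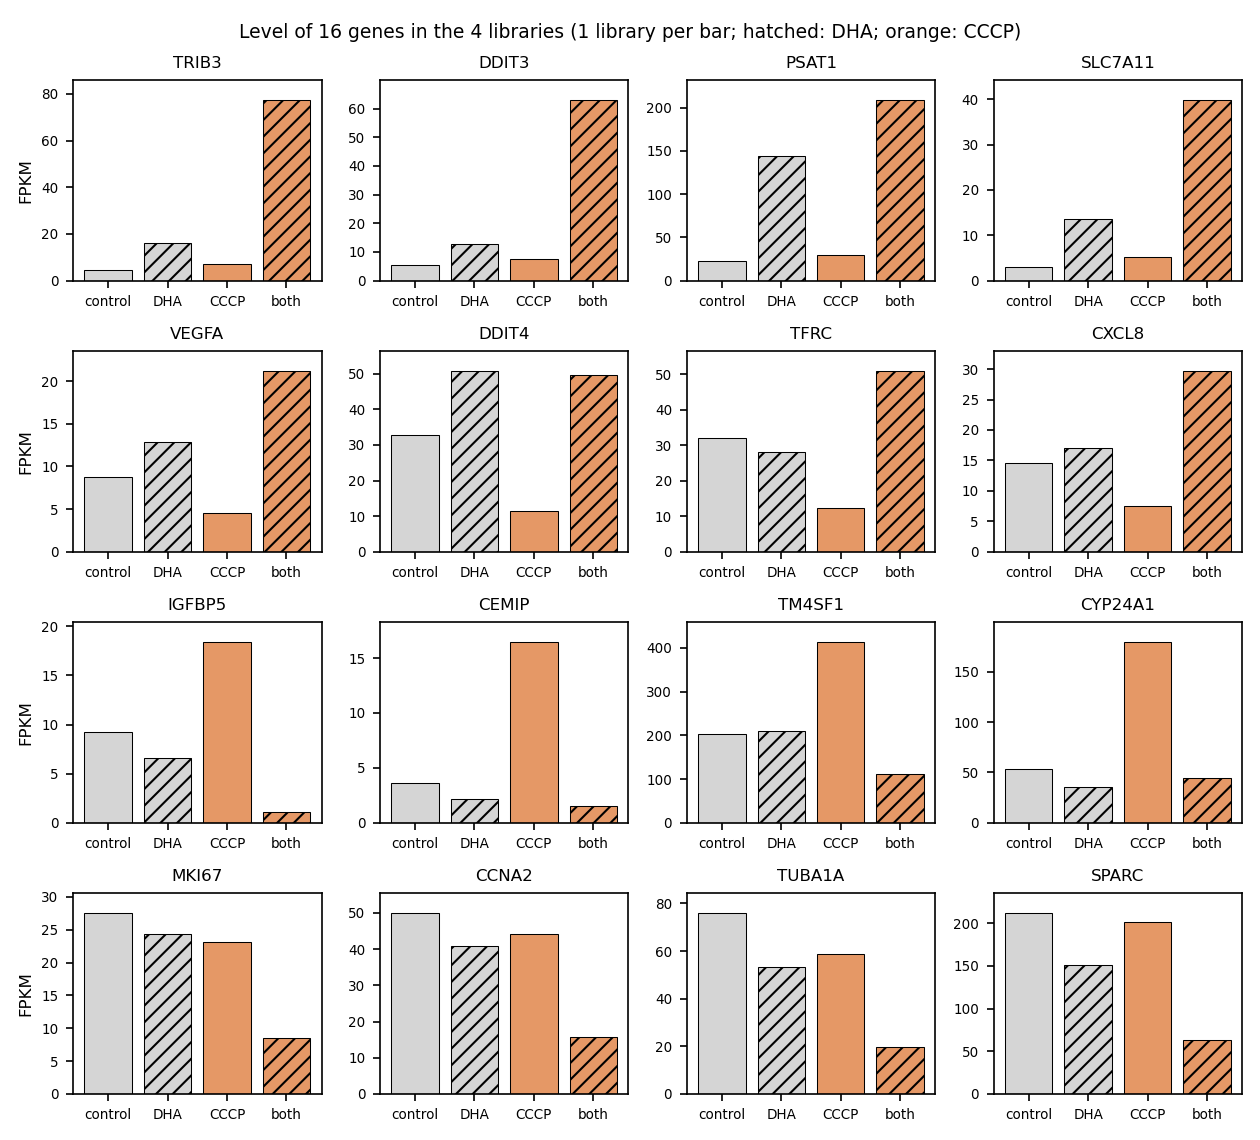
FPKM of 16 genes in the 4 libraries, 1 library per bar, each panel with its own axis from 0. Hatched bars had DHA and orange bars had CCCP; TRIB3 and DDIT3 are highest with both, TFRC and VEGFA are lowest with CCCP alone, and CEMIP, TM4SF1 and CYP24A1 are highest with CCCP alone.

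Genes that answer oxidants were higher in part. NRF2, the transcription factor released by oxidants, has 24 targets in the list. Of these 19 were measured, 5 were at least 2-fold higher and none lower, with a median of 0.54. The shares over all protein-coding genes were 1.57% and 2.88%. NQO1, a quinone reductase, was at 44 FPKM in control, 110 under CCCP, 92.2 under DHA and 241 under both. GCLC, the catalytic subunit for the first step of glutathione synthesis, was at 2.86, 2.69, 2.99 and 7.21 FPKM, high in the library with both compounds only. SLC7A11 is counted here too. SRXN1 (log2 ratio 1.10) shares 85% of its exon length with another gene.

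FTH1, the ferritin heavy chain, was at 150, 201, 184 and 430 FPKM, and 62% of its exon length is shared with another gene. FTL, the light chain, was at 3199 FPKM in control, 7916 under CCCP, 4160 under DHA and 11355 under both, a 1.43-fold (1.42 to 1.45) difference in the pair. Ferritin stores iron and TFRC imports it, and both heavy chain and receptor were past 2-fold. HMOX1, which breaks down heme, had a log2 ratio of 0.98 with CCCP and -0.56 without, and ALAD, an early heme enzyme, was at -0.93. Of the 22 iron and heme genes measured, 2 were at least 2-fold higher and none lower, against 1.57% and 2.88% of all protein-coding genes. Of the 22, 13 lay above 0 and 9 below, and the median was 0.14.

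A single gene was past 2-fold in each of the lists of autophagy, of mitophagy and of mitochondrial chaperones and proteases. MAP1LC3B, the LC3 protein of the autophagosome membrane, was at 18 FPKM in control, 18.1 under CCCP, 23.8 under DHA and 63.5 under both, 3.51-fold (3.32 to 3.71) higher. SQSTM1, the cargo receptor p62 that binds LC3, was at 40.7, 55.6, 55.2 and 129 FPKM, 2.32-fold (2.26 to 2.39) higher. They were the only members past 2-fold among 20 autophagy and 21 mitophagy genes measured. The shares over all protein-coding genes were 1.57% higher and 2.88% lower. PINK1, the kinase that accumulates on depolarised mitochondria, was at 12.7 FPKM with CCCP and 7.62 with both, a 1.67-fold (1.51 to 1.84) lower level that did not reach 2-fold, and in control it was at 8.39. Its exon length is shared with another gene for 41.7%. HSPA9, the mitochondrial HSP70, was the 1 of 14 mitochondrial chaperones and proteases past 2-fold, at 33.9, 32.4, 45.2 and 82.9 FPKM.

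The transcripts of the mitochondrial genome differed unevenly, in libraries where the share of mitochondrial reads was 5.09% with CCCP and 3.85% with both. Of 13 mRNAs none reached 2-fold, 10 were below 0 and the median log2 ratio was -0.51, whereas without CCCP it was 0.10. MT-CO2, a subunit of cytochrome oxidase, was at 6187 FPKM in control, 6157 under CCCP, 6372 under DHA and 3164 under both. MT-CO1 was at 9076, 10674, 10199 and 5938 FPKM, and the library with both was the lowest for each. MT-ND2, a complex I subunit, went the other way, at 1024 FPKM with CCCP and 1651 with both, with a log2 ratio of 0.69. Nuclear genes of the respiratory chain had a median of -0.11 over 28 measured, and none was past 2-fold.

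Of the 52 gene lists, the mitotic genes had the largest share of members that were 2-fold lower. Of 30 listed, 29 were measured, all had a ratio below 0 and 22 were at least 2-fold lower, and the median ratio was -1.16. Of all protein-coding genes 2.88% were 2-fold lower. Without CCCP none of the 29 was 2-fold lower, the median was -0.23, and every one had a smaller ratio with CCCP than without. KIF20A, a kinesin of cell division, was at 36 FPKM in control, 29.8 under CCCP, 22.5 under DHA and 7.98 under both, 3.73-fold (3.39 to 4.11) lower. The cyclin CCNA2 was at 49.9, 44.3, 40.9 and 15.6 FPKM, the kinase CDK1 at 37.4, 42.1, 34 and 16.1, and the proliferation marker MKI67 at 27.5, 23.1, 24.4 and 8.47. For these 4 the library with both was the lowest and the other 3 lay closer together. The smallest difference of the list was that of CCNB2, at -0.71. With the libraries scaled to equal totals, 18 of the 29 were 2-fold lower.

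Cell cycle genes of this phase often carry the CHR element, with core TTTGAA, near a CCAAT box, to which the DREAM complex and NF-Y bind. TTTGAA occurred in 15.4% of all promoter windows, in 9.39% of those of measured protein-coding genes and in 15 of 24 matched mitotic genes. CCAAT occurred in 35.7%, 36.6% and 20 of 24. Of the 247 matched genes at least 2-fold lower 61 (24.7%) held TTTGAA, and of the 129 higher 10 (7.75%). The motifs were searched on both strands and may overlap.

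The promoters of MKI67 and CDK1 are printed because, of the mitotic genes at least 2-fold lower, these 2 had the lowest ratios with both strings in the 250 bases before the start. Capitals mark TTTGAA and CCAAT (or ATTGG, its reverse complement). They lie at chr10:128126424-128126673 (minus strand) and chr10:60778081-60778330 (plus strand), and each ends at the base before the RefSeq start.
MKI67: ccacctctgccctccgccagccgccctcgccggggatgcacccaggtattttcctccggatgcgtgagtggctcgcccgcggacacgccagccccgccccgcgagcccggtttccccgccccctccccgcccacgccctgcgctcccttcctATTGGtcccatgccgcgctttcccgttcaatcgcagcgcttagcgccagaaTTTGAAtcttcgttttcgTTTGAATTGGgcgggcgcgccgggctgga
CDK1: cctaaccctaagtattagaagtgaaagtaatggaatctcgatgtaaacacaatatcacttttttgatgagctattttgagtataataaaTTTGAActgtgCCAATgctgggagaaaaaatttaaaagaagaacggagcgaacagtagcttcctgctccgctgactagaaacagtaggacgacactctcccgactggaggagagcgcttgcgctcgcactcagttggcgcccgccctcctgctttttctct

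In MKI67 TTTGAA begins 47 and 29 bases before the start and ATTGG 98 and 24 bases before it, and the last TTTGAA and ATTGG overlap. In CDK1 TTTGAA begins 161 and CCAAT 150 bases before the start.

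Genes of DNA replication were lower by less. All 32 listed were measured, 30 had a ratio below 0, 3 were at least 2-fold lower and the median was -0.60, or -0.11 without CCCP. For this list and the next, the share of all protein-coding genes that were 2-fold lower was 2.88%. The thymidine kinase TK1 was at 111 FPKM in control, 76 under CCCP, 96.5 under DHA and 35 under both, and RRM2, a ribonucleotide reductase subunit, had a log2 ratio of -1.10. CCNE1, the cyclin of entry into this phase, was at 0.14. Among 16 G1 regulators measured, CDK2 and the inhibitors CDKN2C, CDKN2D and CDKN1C were at least 2-fold lower, and CDKN2C had the lowest log2 ratio of them, at -1.61. MYC (0.71) and the G1 cyclin CCND1 (0.55) lay on the other side of 0.

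**Figure D4:**
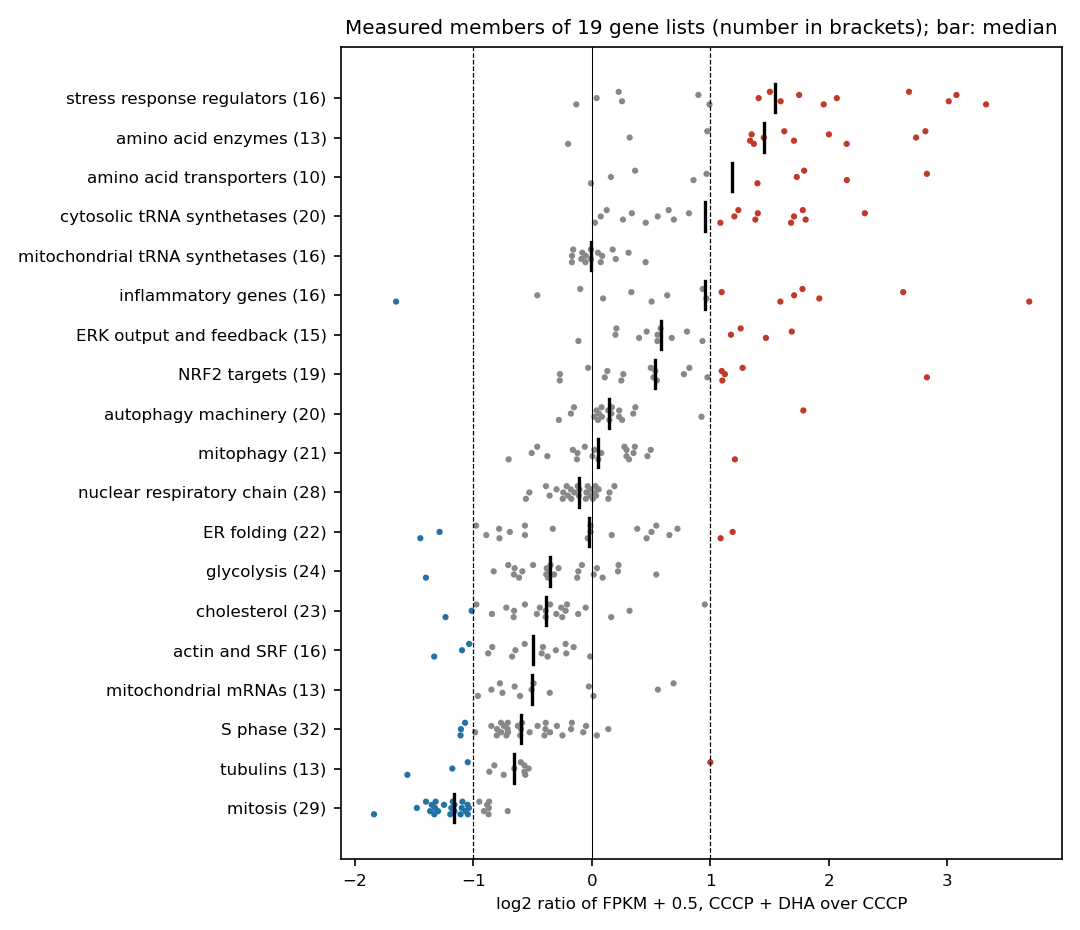
Log2 ratio of FPKM + 0.5, CCCP + DHA over CCCP, for each measured member of 19 gene lists (rows, number in brackets), 1 library each. Black bars are medians and dashed lines 2-fold; the stress response lists and cytosolic synthetases lie to the right, and mitosis, tubulins and S phase to the left.

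Structural proteins of the cytoskeleton were lower as well. Of 13 tubulin genes measured 12 were below 0 and 3 were at least 2-fold lower, with a median of -0.65. The shares over all protein-coding genes were 2.88% lower and 1.57% higher. TUBA1A, an alpha tubulin, was at 75.8 FPKM in control, 58.6 under CCCP, 53.4 under DHA and 19.6 under both, 2.99-fold (2.79 to 3.2) lower. TUBE1, epsilon tubulin, was the exception, at 2.96 FPKM with CCCP and 6.42 with both, just past the 2-fold rule. All 16 actin and SRF genes measured were below 0 and 3 were at least 2-fold lower, with a median of -0.49 against 0.02 without CCCP. ACTB, beta actin, was at 1321, 1677, 1137 and 785 FPKM, and the contractile chains MYL9 (-1.33) and MYH9 (-1.03) were likewise past 2-fold. TMSB15A, a small actin-binding thymosin, was at 7.43 FPKM with CCCP and 0.761 with both.

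Extracellular matrix and adhesion genes followed: 5 of 23 measured were at least 2-fold lower and none higher, with a median of -0.47. The shares over all protein-coding genes were 2.88% lower and 1.57% higher. SPARC, a collagen-binding glycoprotein, was at 211, 201, 151 and 63.6 FPKM in control, CCCP, DHA and both, 3.16-fold (3.07 to 3.26) lower than with CCCP. COL4A1 of basement membranes (-1.13), THBS1 (-1.22) and COL1A1 (-1.71, at 2.54 FPKM with CCCP and 0.425 with both) were the others beside CEMIP. Outside this list the collagen COL5A2 was at 29.9, 29.7, 19.1 and 8.57 FPKM. Of 12 fibroblast markers, 4 were measured (FBN1, FAP, PDGFRB and COL1A1). Their summed level was 49.9 FPKM with CCCP and 31.5 with both, and DCN, LUM, THY1 and DPT were at 0 in both libraries. The part of that list in this result was not tested.

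Several of the lowest ratios belonged to genes that CCCP alone had at a higher level than control. IGFBP5, a secreted binding protein of insulin-like growth factors on chromosome 2 (216672105 to 216695525, ENSG00000115461), was at 9.2 FPKM in control, 18.4 under CCCP, 6.62 under DHA and 1.06 under both, 17.3-fold (14.4 to 21) lower with both than with CCCP. CEMIP, a hyaluronan-degrading protein, was at 3.59, 16.4, 2.13 and 1.56 FPKM, 10.5-fold (9.13 to 12.2) lower. CYP24A1, which inactivates vitamin D, was at 53.6, 179, 35.1 and 44.1 FPKM. TM4SF1, a membrane tetraspanin-like protein, was at 202, 413, 210 and 112 FPKM, and the oxytocin receptor OXTR at 36.2, 94.3, 41.7 and 37.1 FPKM. For these the CCCP library was the highest of the 4, and DHA without CCCP gave TM4SF1 and OXTR log2 ratios of 0.06 and 0.20. Their choice by a low ratio over the CCCP library, or by the difference between the ratios, favours genes high in that library. NPPB, a natriuretic peptide, was at 7.7, 11, 10.8 and 1.75 FPKM, with 127 reads with CCCP and 21 with both.

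Genes of low oxygen and sugar use were mostly lower. CA9, a carbonic anhydrase of hypoxic cells, was at 48 FPKM in control, 17.1 under CCCP, 31.2 under DHA and 2.15 under both, 7.95-fold (6.09 to 10.5) lower, with 38.5% of its exon length shared with another gene. CA12, ADM and ALDOC had log2 ratios of -1.25, -1.17 and -1.40, and 4 of 20 measured hypoxia genes were at least 2-fold lower, with VEGFA the 1 that was higher. Of all protein-coding genes 2.88% were lower and 1.57% higher. EPAS1, which encodes the hypoxia factor HIF-2alpha, was at 15.3, 17.6, 29.6 and 82.9 FPKM, 4.72-fold (4.51 to 4.95) higher. Of 24 glycolysis genes 18 were below 0, 1 was 2-fold lower and the median was -0.35. LDHA, which makes lactate, was at 443, 182, 362 and 111 FPKM. The hexokinase-like gene HKDC1 was at 1.59, 1.35, 3.45 and 10.5 FPKM, 7.75-fold (6.26 to 9.69) higher.

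Most genes of folding and quality control in the endoplasmic reticulum were under 2-fold. Of 22 measured 2 lay past 2-fold on each side, where 1.57% of all protein-coding genes were higher and 2.88% lower. The median of -0.02 became 0.05 with equal totals. XBP1, a transcription factor of the unfolded protein response, was at 19.2 FPKM with CCCP and 44.5 with both, and HERPUD1, of the degradation machinery, at 12.3 and 26.7. CALR, a calcium-binding chaperone, was at 430 FPKM in control, 284 under CCCP, 302 under DHA and 116 under both, and PDIA4, a disulfide isomerase, at 101, 74.3, 62.3 and 27. Among 23 cholesterol genes the median was -0.39, and INSIG1 (-1.23) and STARD4 (-1.01) were past 2-fold.

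The same genes were then read without CCCP, in the pair DHA against control, which shares no library with the first. There 200 of the 13111 genes (1.53%) were past 2-fold on the higher side and 162 (1.24%) on the lower. Among protein-coding genes these numbers were 33 (0.306%) and 5 (0.0464%), and 30 of the 33 were also among the 169 higher with CCCP, which is 90.9% of the 33 and 17.8% of the 169. For the lower genes the overlap was 3, or 60% of 5 and 0.968% of 310. The side was shared more widely than the size: 153 of the 169 lay above 0 without CCCP, where 50.9% of all did, and 277 of the 310 lay below 0, where 49.1% did. Over all gene types less was shared. There 76 of the 200 (38%) and 47 of the 162 (29%) overlapped. The side was the same for 63.8% of the higher genes, where 50.2% of all lay above 0. For the lower genes it was 69.5%, where 48.7% lay below 0.

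The ratios were larger with CCCP. Over the 169 higher genes the median log2 ratio was 1.36 with CCCP and 0.50 without, and the 310 lower genes -1.23 and -0.30. These genes were chosen by their ratio with CCCP, so both medians are a description. Over all protein-coding genes measured, which were not chosen by ratio, the SD of the log2 ratios was 0.47 with CCCP and 0.22 without. These genes had at least 1 FPKM in a library of the CCCP pair, so the SDs are likewise a description. Across the 10767 genes Pearson's r between the ratios was 0.54 and Spearman's rho 0.45, given as a description since genes of the same libraries are not independent. No protein-coding gene was 2-fold higher in one pair and 2-fold lower in the other. Over all gene types 31 of the higher and 34 of the lower genes were. The difference between the pairs could not be tested with 1 library in each group.

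**Figure D5:**
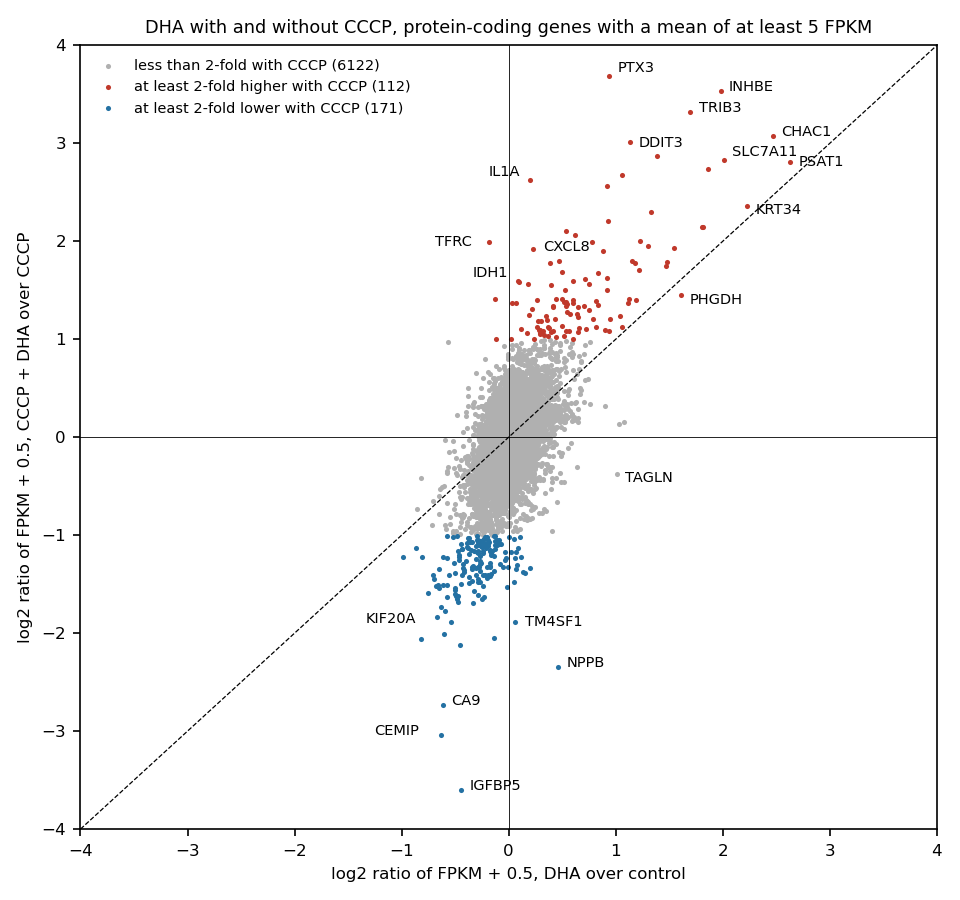
Log2 ratio of FPKM + 0.5 for DHA over control (horizontal) and for CCCP + DHA over CCCP (vertical), protein-coding genes averaging at least 5 FPKM; the dashed diagonal marks equal ratios. Most of the 112 red and 171 blue genes lie farther from 0 vertically than horizontally, while PSAT1 and KRT34 lie near the diagonal and IL1A and TFRC near 0 on the horizontal axis.

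KRT34, a hair keratin, was among the genes near that diagonal, at 32.9 FPKM in control, 130 under CCCP, 156 under DHA and 669 under both, with log2 ratios of 2.36 with CCCP and 2.23 without. By contrast the difference between the ratios was among the 10 largest in the positive direction for PTX3, IL1A, TFRC, DDIT3 and CXCL8, and among the 10 largest in the negative direction for IGFBP5, NPPB, CEMIP, CA9 and TM4SF1. TAGLN, an actin-binding protein, differed in side: it was at 30.6 FPKM in control and 62.3 with DHA, but at 74.8 with CCCP and 57.7 with both.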

How the data were processed

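RNA of 4 libraries was compared, 1 per group, taken from the labels; libraries were made with an Illumina TruSeq kit from 1 ug of total RNA, per the labels' protocols. The authors deposited FPKM per gene, per the file headers; the sources used here do not give the aligner, counting tool or build. All 58735 gene identifiers matched GENCODE 29 (Ensembl 94, GRCh38), which gave gene types, coordinates and exon lengths. FPKM times summed exon length came in whole steps within 0.01 reads, which gave back reads for depth and intervals. The library sizes implied by these steps differed from the summed reads by up to 2.78%, because the deposited values carry a scaling between libraries that matched median-of-ratios factors, and they were used as deposited. This could shift every ratio together, so other scalings were tried.

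Ratios are log2(FPKM + 0.5), which understates the differences of low genes; folds with intervals are ratios of FPKM without the pseudocount. The 52 gene lists, and the genes compared, were chosen with earlier results of these data known. Named genes were the 20 highest and 20 lowest protein-coding ratios averaging 5 FPKM or more, the 5 highest and lowest of other types with at least 50 reads, up to 6 members per list, the members of a few lists, and the 10 largest differences between ratios with and without CCCP in each direction; subsets were taken from these, and 1 gene is not reported here. The lineage, fibroblast and stress genes listed at 0 or below 1 FPKM, the IDH3 subunits, and a few list members printed to show the low end of a list, were named after their values were seen. Promoter windows came from RefSeq, matched by symbol or synonym. No count test was run, since no group had a second library. Calculations were tested on simulated data. The tools were scipy 1.17.1, pandas 2.3.3, numpy 2.4.6 and matplotlib 3.10.9 under Python 3.11.15.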

Additional observations from a re-analysis of the deposited data

Results flagged for a closer look

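AC004057.1, a transcribed processed pseudogene on chromosome 4, lay on opposite sides in the pair with and the pair without CCCP. It was at 20.3 FPKM in control, 149 under CCCP, 119 under DHA and 33.6 under both. Its log2 ratio was -2.14 for CCCP + DHA over CCCP, with 1243 and 289 reads, and 2.52 for DHA over control. It was picked out because both ratios were past 2-fold in opposite directions with at least 50 reads in each pair. Without that read limit, 31 of the 450 higher and 34 of the 646 lower genes were past 2-fold on the opposite side without CCCP. The difference was not tested, since each group has 1 library. A processed pseudogene can share reads with its parent gene, so its level is uncertain.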

How the results depend on the processing

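No paired analysis was possible because each group holds 1 library with no replicate number, and leaving out a library would leave its group empty. The 450 higher genes became 750 with no filter, 128 with a mean of at least 5 FPKM, 169 with protein-coding genes only, 1159 at 1.5-fold, 97 at 4-fold and 255 where the counting interval excluded 1. The 646 lower genes became 194 with a mean of at least 5 FPKM, 310 with protein-coding genes only, 1618 at 1.5-fold and 100 at 4-fold. The counts stayed within 1.5 times of these under both pseudocounts (0.1 and 1), under 1 FPKM in any of the 4 libraries and under both rescalings. The median ratio of all genes was -0.00699 with no filter, 0.0247 with a mean of at least 5 FPKM, -5.28e-05 after median-of-ratios scaling and 0.0867 with equal totals. The correlation across all genes of ratios with and without CCCP, 0.293, was 0.342 with a pseudocount of 1 and 0.537 where the mean was at least 5 FPKM. List medians changed sign for 6 of 50 lists: with equal totals the mitochondrial synthetases, endoplasmic reticulum, tricarboxylic acid cycle and epithelial lists (all above 0 then), and under the 5 FPKM filter the G1 regulators (-0.29 to 0.02) and hair keratins (-0.10 to 0.16). Of 158 named genes past 2-fold, 149 remained so with equal totals and 151 with a pseudocount of 1, and none changed sign. Low reads limit the small non-coding genes most.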

Other observations

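Genes that restrain or report growth factor signalling were also higher in CCCP-treated cells given DHA. Of 15 ERK output and feedback genes measured 4 were at least 2-fold higher and none lower, against 1.57% and 2.88% of all protein-coding genes. Their median log2 ratio was 0.58 against 0.18 without CCCP. DUSP5, a nuclear phosphatase of ERK, was at 8.98 FPKM in control, 9.82 under CCCP, 12.9 under DHA and 32.7 under both, 3.33-fold (2.99 to 3.72) higher, and DUSP6 and the transcription factor ETV5 had ratios of 1.47 and 1.26, with 40.5% of the exon length of DUSP6 shared with another gene. The transcription factor KLF4 was at 2.95, 2.14, 5.41 and 10 FPKM. Genes whose mRNAs turn over quickly had a median of 0.12 over 18 measured, and none was past 2-fold.

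Of 19 genes listed for the tricarboxylic acid cycle and measured, 1 was at least 2-fold higher and 1 lower, both isocitrate dehydrogenases. The shares over all protein-coding genes were 1.57% higher and 2.88% lower. IDH1, the cytosolic enzyme, was at 10.1 FPKM in control, 12.5 under CCCP, 10.7 under DHA and 38.7 under both, 3.1-fold (2.89 to 3.33) higher, and IDH2, the mitochondrial enzyme, at 19.3, 24.8, 17.1 and 9.66 FPKM, 2.57-fold (2.31 to 2.87) lower. Without CCCP their log2 ratios were 0.09 and -0.17. The subunits of the third enzyme, IDH3A, IDH3B and IDH3G, had ratios of 0.46, 0.12 and -0.15 with CCCP. Among 24 genes listed as translation factors, EIF4EBP1 (1.30), which encodes a repressor of initiation, was past 2-fold. So were the initiation factors EIF5 (1.25) and EIF1 (1.12), while none of 33 ribosomal protein genes was. The keratin KRT33B was at 169 FPKM with CCCP and 67.1 with both, opposite in direction to KRT34 and KRT31 (log2 ratios 2.36 and 1.94).

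Among other gene types with a mean of at least 5 FPKM and at least 50 reads over the pair, MT-TG, the mitochondrial glycine tRNA, had the lowest ratio, -3.11, with 46 reads with CCCP and 5 with both. The antisense gene AC090109.1 was at 10.8 FPKM with CCCP and 1.77 with both, and SBDSP1, a pseudogene, at 8.45 and 26.6.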
